A study of Mus musculus with 8 samples.

Results

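Transcripts of 8 genes of platelets and megakaryocytes (Tubb1, Pf4, Ppbp, Itga2b, Itgb3, Gp1bb, Gp9 and Treml1) were followed in heart tissue of mice with autoimmune myocarditis. The genes were matched by symbol in the deposited table. Of the 8, 7 had values, among 18835 genes with values in all, and Gp1bb was listed without any. They were chosen with the difference between the treatment groups in view, so their fold changes are given as a description and without a test. All animals were male BALB/cAJcl mice, 10 weeks old, immunized with cardiac myosin, which sets off an inflammation of the heart muscle. In the VEGF-C group, 4 animals were injected intraperitoneally with VEGF-C C156S at 1 µg per day from day 7 to day 10 after immunization; VEGF-C C156S is a form of the lymphatic growth factor that acts through the receptor VEGFR-3. In the PBS group, 4 animals were injected with PBS on the same days. Hearts were taken in week 3 and their RNA was sequenced, with 1 library per animal. The labels name no unimmunized animals, so each group carries the disease.

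Platelets are cell fragments without a nucleus that bud from megakaryocytes and carry RNA made in the parent cell. They seal damaged vessels: the glycoprotein Ib-IX-V complex binds von Willebrand factor on exposed matrix, the integrin of Itga2b and Itgb3 binds fibrinogen and links platelets together, and granules release chemokines such as those of Pf4 and Ppbp. In inflamed tissue, platelets also bind leukocytes and the vessel wall.

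The series is titled for cardiac lymphatic endothelial cells, but the samples are labelled as heart. Heart muscle markers were read at high levels in all libraries, with Myh6, the alpha myosin heavy chain, at log2 values between 19.90 and 20.88. Recovered read totals were between 53679737 and 65230480 in VEGF-C libraries and between 61713842 and 76803952 in PBS libraries. In limma, with an adjusted p under 0.05 as the threshold, 15.7% of the 18835 genes were called (2949), among them 1328 that rose (7.05% of all) and 1621 that fell (8.61%) in VEGF-C hearts. With library totals as factors 243 rose and 3572 fell, and with upper-quartile factors 769 rose and 1937 fell. The number called was 2906 without PBS 1, and between 1684 (without VEGF-C 3) and 2167 (without PBS 4) without any other single library. The number that rose was between 591 and 857 without any of the VEGF-C libraries, PBS 2 or PBS 3. PBS 1 stood apart on the second principal component (19.7% of the variance), at 56.8, against -25.6 to 5.82 in the other 7 libraries. Among the platelet genes, VEGF-C 4 was the lowest of its group in Ppbp, Tubb1, Gp9, Treml1 and Itga2b. In Pf4 and Itgb3 the lowest was VEGF-C 3. Libraries are numbered as in the deposited table, and these numbers tie to no animal.

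Ppbp, Tubb1, Gp9 and Treml1 were higher on average in VEGF-C hearts, by 2.24-fold to 3.75-fold in mean normalized counts, while Pf4, Itga2b and Itgb3 differed by at most 1.12-fold. In the first 4 genes VEGF-C 1, 2 and 3 were high, and VEGF-C 4 was near or within the range of the PBS libraries. The linear folds are ratios of group means of normalized counts (reads divided by 1 factor per library), and log2 fold changes are on the deposited scale, log2(normalized count + 4), on which the change of a gene with few reads comes out too small.

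**Figure D1:**
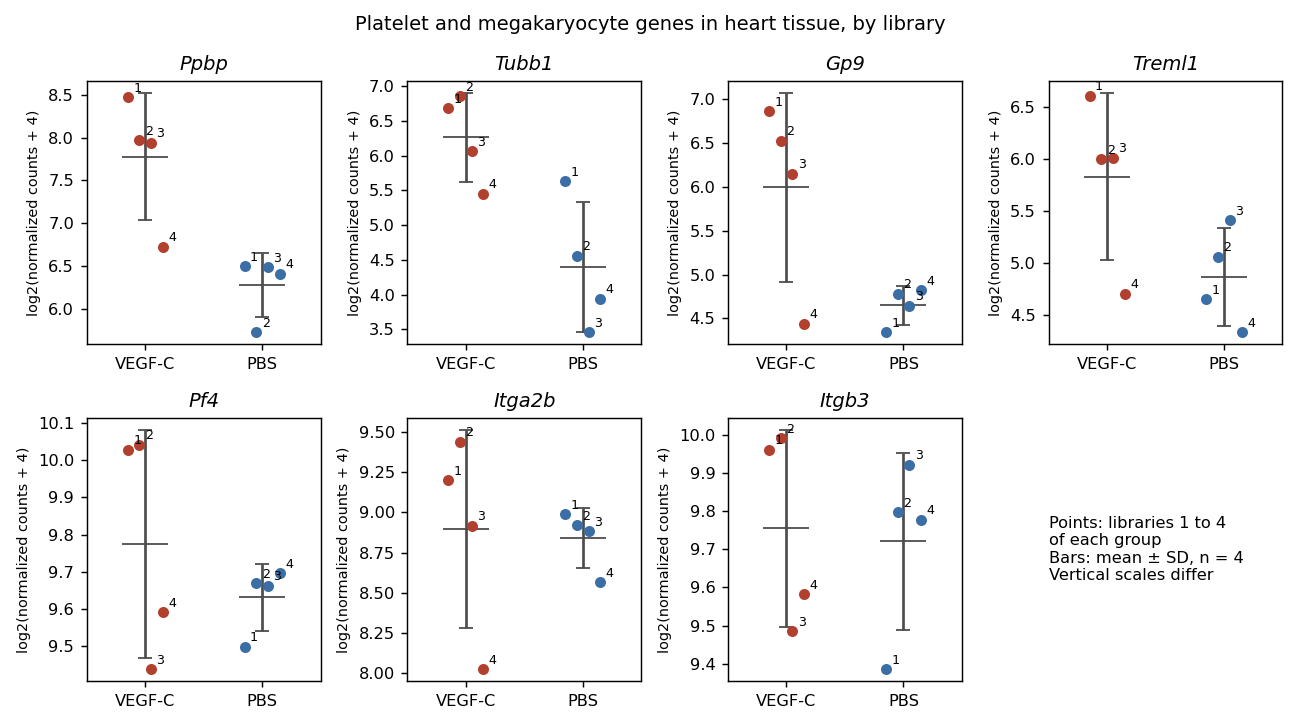
Log2 values (normalized count + 4) of 7 platelet and megakaryocyte genes in each VEGF-C library (red) and each PBS library (blue), with the library number beside each point and bars for the mean ± SD of 4 animals. In Ppbp all 4 VEGF-C points lie above the PBS points. In Tubb1, Gp9 and Treml1 libraries 1 to 3 of the VEGF-C group do, and VEGF-C 4 lies within the PBS range. Vertical scales differ between panels.

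Ppbp (ENSMUSG00000029372) encodes the chemokine precursor pro-platelet basic protein, which neutrophils sense through CXCR2 once it is cleaved. It had 352, 247, 242 and 102 normalized counts in VEGF-C 1 to 4, against 86.2, 48.9, 85.8 and 81.0 in PBS 1 to 4. It was the only gene of the 7 in which the groups did not overlap. The groups did not overlap in 23% of all genes, with VEGF-C above in 11.5% and below in 11.6%. The means were 236 ± 103 in VEGF-C and 75.5 ± 17.9 in PBS (normalized counts, SD, n = 4 each), a log2 fold change of 1.50 ± 0.34 (SE). VEGF-C 4 was only just above the highest PBS library, and PBS 2 was the lowest library of all.

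Pf4 (ENSMUSG00000029373) encodes platelet factor 4, the other abundant chemokine of platelet alpha granules, and in mice some tissue macrophages also transcribe it. It had 1041, 1051, 689 and 767 normalized counts in VEGF-C 1 to 4, against 718, 810.0, 806 and 825 in PBS 1 to 4. VEGF-C 1 and 2 were above all PBS libraries and VEGF-C 3 was below all of them, so the groups overlapped. The log2 fold change was 0.14 ± 0.14 (SE), and -0.046 with library totals for scaling. Pf4 and Ppbp are neighbours on mouse chromosome 5, their annotated starts 3917 bases apart. Their log2 difference, Ppbp minus Pf4, was -1.55, -2.07, -1.49 and -2.87 in VEGF-C 1 to 4, and -3.00, -3.94, -3.17 and -3.29 in PBS 1 to 4. The groups did not overlap on this difference, with VEGF-C 4 again nearest to PBS. Ppbp enters the difference and Pf4 hardly differed, so this repeats the Ppbp values and is no second result.

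Tubb1 (ENSMUSG00000016255) encodes the beta-tubulin of the microtubule ring that gives platelets their disc shape. It had 98.6, 112, 62.7 and 39.8 normalized counts in VEGF-C 1 to 4, against 45.6, 19.6, 7.01 and 11.3 in PBS 1 to 4. Its means were 78.2 ± 32.9 in VEGF-C and 20.9 ± 17.3 in PBS (SD, n = 4 each), and its log2 fold change, 1.86 ± 0.48 (SE), was the largest of the 7. PBS 1 was above VEGF-C 4, and these were the only libraries out of order. The PBS values rest on 56, 20, 8 and 14 reads, and the VEGF-C values on 93, 86, 56 and 36.

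Gp9 (ENSMUSG00000030054) encodes glycoprotein IX, the small subunit that the glycoprotein Ib-IX-V complex needs to reach the platelet surface. It had 112, 88.3, 67.2 and 17.7 normalized counts in VEGF-C 1 to 4, against 16.3, 23.5, 21.02 and 24.3 in PBS 1 to 4. The first 3 VEGF-C libraries were above the highest PBS library, while VEGF-C 4 lay within the PBS range. The log2 fold change was 1.35 ± 0.47 (SE). Gp1bb, which encodes the beta chain of the same complex, is the gene without values.

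Treml1 (ENSMUSG00000023993) encodes TLT-1, a receptor of platelet and megakaryocyte granules that moves to the surface on activation. It had 93.3, 59.8, 60.5 and 22.1 normalized counts in VEGF-C 1 to 4, against 21.2, 29.3, 38.5 and 16.2 in PBS 1 to 4. Again VEGF-C 1, 2 and 3 were above every PBS library and VEGF-C 4 was among them. The means were 58.9 ± 29.1 in VEGF-C and 26.3 ± 9.79 in PBS (SD, n = 4 each), and the log2 fold change was 0.96 ± 0.41 (SE).

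Itga2b (ENSMUSG00000034664) and Itgb3 (ENSMUSG00000020689) encode the chains of the platelet fibrinogen receptor, integrin alphaIIb beta3. The beta3 chain also pairs with the alphaV chain in vessel wall cells and macrophages. Itga2b had 585, 691, 479.5 and 256 normalized counts in VEGF-C 1 to 4, against 504, 480.3, 468 and 375 in PBS 1 to 4. Its spread was wider in VEGF-C (503 ± 186) than in PBS (457 ± 56.3; SD, n = 4 each), since VEGF-C 1 and 2 were the highest libraries and VEGF-C 4 the lowest. Itgb3 had 992, 1013, 713 and 763 normalized counts in VEGF-C 1 to 4, against 665, 885, 966 and 874 in PBS 1 to 4. The groups overlapped in both genes. Their log2 fold changes were 0.058 ± 0.26 and 0.034 ± 0.15 (SE), and both turned negative when library totals were used for scaling (-0.13 and -0.16). With upper-quartile factors they were -0.00016 and -0.024. Itga2b was also negative without VEGF-C 1 (-0.045), VEGF-C 2 (-0.12) or PBS 4 (-0.033), and Itgb3 without VEGF-C 1 (-0.035), VEGF-C 2 (-0.045) or PBS 1 (-0.077).

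The threshold of the fit over all genes was passed by 2 of the 7 genes (Ppbp and Tubb1), where 15.7% of all genes pass. In the authors' deposited table, 4 of the 7 had an adjusted p under 0.05 (Ppbp, Gp9, Tubb1 and Treml1), where 21.7% of its genes have one and 10.2% are also higher in VEGF-C. Since the genes were chosen on this contrast, nothing is read from these counts. The number was 4 without VEGF-C 4, 1 without VEGF-C 1, VEGF-C 2, PBS 2, PBS 3 or PBS 4, and 0 without VEGF-C 3. Without VEGF-C 4 the log2 fold changes were 2.13 for Tubb1, 1.87 for Gp9, 1.85 for Ppbp and 1.34 for Treml1. At least 3 of the 4 VEGF-C libraries were above all PBS libraries in 4 of the 7 genes and in 20.5% of all genes. Nothing is read from this count either, for the same reason: the genes were chosen on this contrast. In whole heart tissue, more platelets or megakaryocytes and more of these transcripts per cell cannot be told apart.

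Per length of merged exons, the order of the genes differed between the groups. In VEGF-C, Pf4 was the most abundant with 1230.3 normalized counts per kb, followed by Ppbp (218), Itgb3 (147), Itga2b (92.2), Gp9 (81.1), Tubb1 (55.6) and Treml1 (42.0). In PBS, Pf4 was also first with 1095 normalized counts per kb, followed by Itgb3 (144), Itga2b (83.7), Ppbp (69.7), Gp9 (24.1), Treml1 (18.8) and Tubb1 (14.8). Ppbp thus stood above both integrin chains in the VEGF-C means and below them in the PBS means. In VEGF-C, Pf4 lay above the other genes in every library, and each pair of neighbours below it had overlapping ranges. In PBS, Pf4 and Itgb3 were each above the next gene in all libraries, as was Ppbp above Gp9. The ranges of Itga2b (68.8 to 92.3 per kb) and Ppbp (45.2 to 79.6) overlapped there, as did those of Gp9, Treml1 and Tubb1.

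The promoters of the 4 genes with the larger differences, and that of Pf4 as the neighbour of Ppbp, are shown because the neighbours Ppbp and Pf4 differed in their fold changes and the other 3 resembled Ppbp. They are the 250 bases before the annotated start, from RefSeq on GRCm38.p6, 5′ to 3′ on the strand of the gene. Capitals mark matches to the ETS-type motifs AGGAAG or CGGAAG on either strand.
Ppbp, chr5:90768268-90768517, plus strand: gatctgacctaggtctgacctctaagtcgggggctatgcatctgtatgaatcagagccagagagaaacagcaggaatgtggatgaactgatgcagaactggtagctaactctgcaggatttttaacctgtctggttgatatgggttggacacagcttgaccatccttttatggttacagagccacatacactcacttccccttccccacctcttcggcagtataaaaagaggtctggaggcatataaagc
Pf4, chr5:90772185-90772434, plus strand: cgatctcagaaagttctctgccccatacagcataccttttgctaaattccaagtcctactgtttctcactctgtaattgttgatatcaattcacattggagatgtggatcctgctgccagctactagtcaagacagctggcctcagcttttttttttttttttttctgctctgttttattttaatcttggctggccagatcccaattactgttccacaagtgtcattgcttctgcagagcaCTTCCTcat
Tubb1, chr2:174450345-174450594, plus strand: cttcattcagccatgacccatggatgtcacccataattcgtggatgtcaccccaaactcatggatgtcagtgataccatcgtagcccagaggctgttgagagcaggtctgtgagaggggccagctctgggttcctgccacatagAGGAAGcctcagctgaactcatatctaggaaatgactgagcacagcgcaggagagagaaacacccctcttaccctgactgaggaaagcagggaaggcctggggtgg
Gp9, chr6:87777820-87778069, plus strand: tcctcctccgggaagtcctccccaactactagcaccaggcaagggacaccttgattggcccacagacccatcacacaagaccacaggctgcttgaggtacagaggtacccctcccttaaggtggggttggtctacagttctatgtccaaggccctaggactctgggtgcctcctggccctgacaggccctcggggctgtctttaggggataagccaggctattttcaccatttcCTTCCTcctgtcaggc
Treml1, chr17:48359666-48359915, plus strand: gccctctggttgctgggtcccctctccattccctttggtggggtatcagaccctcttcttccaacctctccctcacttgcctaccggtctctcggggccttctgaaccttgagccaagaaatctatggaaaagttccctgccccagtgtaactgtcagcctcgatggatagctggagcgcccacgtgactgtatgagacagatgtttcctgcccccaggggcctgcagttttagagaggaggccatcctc
ETS factors such as Fli1 and GATA factors are known regulators of megakaryocyte genes. An ETS-type match was found in Tubb1, Gp9, Pf4, Itga2b and Gp1bb, and not in Ppbp and Treml1, where 39.2% of 32851 promoter windows of the same length hold one. The nearest to the start was that of Pf4, on the opposite strand, with its first base at -9. GATA-type letters were searched on both strands as AGATAA or AGATAG, and as TGATAA or with a closing base changed as TGATAG. They are present in 26.5% of all windows and were found only in Gp1bb. The NF-E2 core TGAGTCA (4.46% of windows) was found in none, and the RUNX letters TGTGGT (14.0%) only in Gp9. The table held windows for 7 of the 8 genes, all but Itgb3. These letters are a description of the windows and say nothing about binding.

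Within the groups, the genes varied together, mainly through VEGF-C 4. Each value was taken as its deviation from the mean of its own group, which leaves the treatment contrast out. In VEGF-C 4 all 7 genes were below their group mean, from -0.17 (Itgb3) to -1.56 (Gp9) on the log2 scale, and in VEGF-C 1 and VEGF-C 2 all 7 were above it. In VEGF-C 1 they were above it by 0.21 (Itgb3) to 0.87 (Gp9). In the PBS libraries the signs were mixed. PBS 1, for example, was 1.23 above the PBS mean in Tubb1 and -0.31 from it in Gp9.

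**Figure D2:**
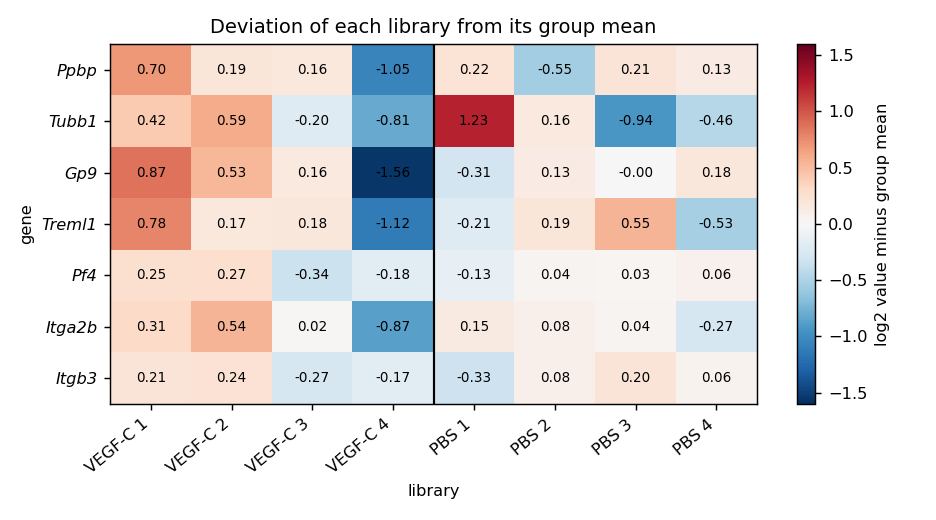
Deviation of each library (columns, VEGF-C 1 to 4 left of the line and PBS 1 to 4 right of it) from the mean of its group, in log2 units, for 7 genes (rows). VEGF-C 4 is below its group mean in all 7 genes, by most in Gp9 (-1.56), while no PBS library has the same sign in all 7.

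Over the 8 libraries, the mean Pearson correlation of these deviations over the 21 pairs of genes was 0.54, ranging from -0.16 (Tubb1 with Itgb3) to 0.89 (Pf4 with Itgb3). It was 0.24 without VEGF-C 4. Itga2b, whose group means hardly differed, had correlations of 0.86 with Gp9, 0.81 with Treml1 and 0.74 with Ppbp. Pf4 and Itgb3 varied most alike with each other, and less with Ppbp (0.41 and 0.30). All 8 points of a correlation share their library, depth and scaling factor between the genes, so these values are a description. The 10 genes outside the group whose deviations were most like those of the 7, on average over them, were Rex1bd, Map2k2, Grap, Cdc42se1, Slc25a39, Egln2, Ndufb7, 4930453N24Rik, Atp5k and Plcg2, with mean correlations between 0.74 and 0.76. Of these, Slc25a39 (0.39), Map2k2 (0.34) and Grap (-0.34) passed in limma (adjusted p = 0.0343, 0.0499 and 0.0490; log2 fold changes in parentheses), and each call was lost without most single libraries. A mean correlation of at least 0.7 was reached by 107 of 16126 genes with at least 50 normalized counts.

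Of 15 further platelet adhesion and agonist receptors with values, 0 passed in limma, where 15.7% of all genes did. With limma-voom 0 passed, and 0 passed in the authors' deposited table, where 21.7% of its genes did. In limma 1 had an unadjusted p under 0.05, and the share of all genes at that threshold was not counted. The median log2 fold change of the 15 was 0.082, against 0.0013 for all genes. Gp5, the glycoprotein V subunit of the same complex as Gp9, had 40.3, 46.8, 22.4 and 6.63 normalized counts in VEGF-C 1 to 4, against 17.9, 7.83, 5.25 and 12.97 in PBS 1 to 4. Here too VEGF-C 4 was low and the other 3 VEGF-C libraries were above all PBS libraries, and the log2 fold change was 0.99 with an SE of 0.51 (limma adjusted p = 0.210). Gp1ba, the von Willebrand factor binding chain, was at 0.32 ± 0.22 (log2 fold change and SE, limma adjusted p = 0.330). Clec1b, the podoplanin receptor CLEC-2, was at 0.041 ± 0.37, the ADP receptor P2ry12 at 0.031 ± 0.20 and the thrombin receptor F2rl3 at 0.17 ± 0.16 (limma adjusted p = 0.954, 0.933 and 0.514). The signs of all 3 changed with library totals. Gp6 and Mpig6b had no values.

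**Figure D3:**
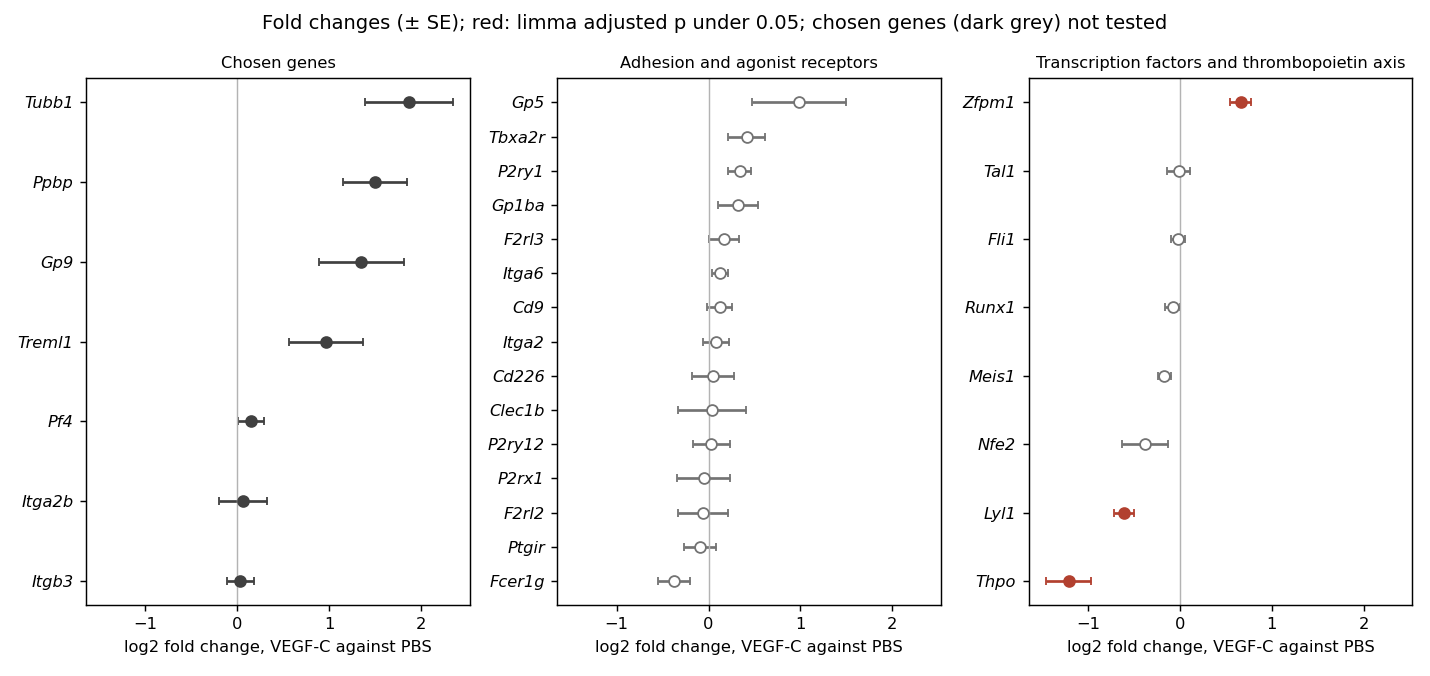
Log2 fold changes of VEGF-C against PBS (± SE, 8 libraries) of the 7 genes chosen on this contrast (dark grey, not tested), of 15 other platelet receptors and of 8 genes of megakaryocyte transcription and thrombopoietin signalling. Red points passed an adjusted p of 0.05 in limma and open points did not. Tubb1 (1.86), Ppbp (1.50), Gp9 (1.35) and Treml1 (0.96) stand apart from Pf4, Itga2b and Itgb3, and Zfpm1 (0.66) is the red point above 0.

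Among 9 genes of megakaryocyte transcription and the thrombopoietin axis, 2 rose and 2 fell in limma, where 7.05% of all genes rose and 8.61% fell; the median was -0.076. The number that rose was 1 without VEGF-C 1, VEGF-C 2, VEGF-C 3 or PBS 2. Zfpm1, the GATA cofactor FOG-1, rose to 2155 ± 106 normalized counts in VEGF-C, against 1374 ± 246 in PBS (SD, n = 4 each; log2 fold change 0.66 ± 0.12, limma adjusted p = 0.00567).

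Thpo, the gene of thrombopoietin itself, had 22.3, 18.2, 32.5 and 22.1 normalized counts in VEGF-C 1 to 4, against 50.4, 51.8, 68.3 and 68.1 in PBS 1 to 4. It fell by 1.21 on the log2 scale (limma adjusted p = 0.0106), lower in 4 of 4 VEGF-C libraries. Thpo shares 239 exon bases with Chrd on the opposite strand. The labels name a stranded library kit and no strand setting of the counting, so their reads may not be separable. Chrd, the gene of the BMP inhibitor chordin, had a log2 fold change of -0.019 ± 0.20. Lyl1, a helix-loop-helix factor of blood and endothelial cells, fell by 0.61 (limma adjusted p = 0.00548). Nfe2, a factor needed for platelet release, was at -0.38 ± 0.25 (limma adjusted p = 0.324). Gata1 and Gfi1b had no values.

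Among 15 granule proteins and granule formation genes, 1 rose and 2 fell, where 7.05% of all genes rose and 8.61% fell, with a median of -0.18. Vwf, which encodes von Willebrand factor and is made by endothelial cells as well as megakaryocytes, rose to 15849 ± 1683 normalized counts in VEGF-C, against 10266 ± 2000.3 in PBS (SD, n = 4 each). On the log2 scale this was 0.64 ± 0.14 (SE, limma adjusted p = 0.0158), and the call was lost with library totals (adjusted p = 0.0552). Hps1 (-0.71) and Vps33b (-0.63), which act in the formation of lysosome-related organelles in many cell types, fell (limma adjusted p = 0.000944 and 0.00629). Selp, the adhesion receptor P-selectin of platelets and endothelium, was at -0.23 ± 0.26 (limma adjusted p = 0.568). The list's members do not follow one direction, and Vwf was the only one of the 15 with all VEGF-C libraries above all PBS libraries, where 11.5% of all genes are so.

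In the platelet signalling and secretion list the called genes were lower in VEGF-C. Of its 17 genes, 6 fell and 0 rose in limma, where 8.61% of all genes fell and 7.05% rose. The median log2 fold change of the 17 was -0.29. With limma-voom 6 passed, and 8 passed in the authors' deposited table, where 21.7% of its genes did. In limma 8 had an unadjusted p under 0.05, and the share of all genes at that threshold was not counted. The list was chosen with earlier results of these data known, so these counts are a description. The secretion gene Stxbp2 (-1.02), the adaptor gene Dok2 (-0.66), the thromboxane synthase gene Tbxas1 (-0.57) and the secretion gene Unc13d (-0.67) fell (log2 fold changes; limma adjusted p = 0.000411, 0.00180, 0.00952 and 0.0189). These genes are shared with leukocytes. In the leukocyte lists, 2 of 12 neutrophil genes, 3 of 12 monocyte and macrophage genes, 3 of 10 lymphocyte genes and 1 of 8 mast cell and basophil genes fell and 0 rose, where 8.61% of all genes fell; their part in the lower signalling genes was not tested. Without 1 library at a time, the number that fell in the signalling list was between 4 and 7.

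Of the other tubulins, 1 of 12 rose, where 7.05% of all genes did. It was Tuba1a (0.34, limma adjusted p = 0.0382). This call was lost with library totals or upper-quartile factors and without VEGF-C 1, 2 or 3 or PBS 2, 3 or 4 (limma adjusted p up to 0.0960). The median of the 12 was 0.12. Of 12 partners, ligands and receptors of the 7 genes with values, 1 fell and 0 rose, where 8.61% of all genes fell. This was Cxcl1, a ligand of the same receptor as processed Ppbp (-1.33, limma adjusted p = 0.0212), whose call was lost with a robust variance fit and without VEGF-C 1, VEGF-C 2, VEGF-C 3 or PBS 2. The receptor of both, Cxcr2, was at -0.61 ± 0.32, the Pf4 receptor Cxcr3 at -0.10 ± 0.29 and the beta3 partner Itgav at -0.074 ± 0.11 (limma adjusted p = 0.208, 0.840 and 0.678). The fibrinogen genes Fga, Fgb and Fgg had no values.

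In the clotting and clot lysis list of the vessel wall, 2 of 13 genes rose and 1 fell, where 7.05% of all genes rose and 8.61% fell. Thbd, the thrombin cofactor thrombomodulin, rose by 0.46 and the thrombin receptor F2r by 0.36, while Plaur, the urokinase receptor, fell (-0.52; log2 scale; limma adjusted p = 0.0367, 0.0404 and 0.0394). The calls of Thbd and F2r were lost with library totals and upper-quartile factors, and each of the 3 was lost without any of at least 5 single libraries (limma adjusted p up to 0.107).

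All 10 erythroid genes with values had positive log2 fold changes (median 0.88), and 0 passed in limma, where 7.05% of all genes rose. With limma-voom 0 passed, and 1 passed in the authors' deposited table, where 10.2% of its genes passed and were higher. In limma 5 had an unadjusted p under 0.05, and the share of all genes at that threshold was not counted. The summed level of the 10 genes was between 149688 and 600942 normalized counts in VEGF-C and between 77244 and 226591 in PBS. None of the 10 was at 0 in any library. Without PBS 4, 3 of the 10 rose. Alas2, the first enzyme of erythroid heme synthesis, was at 1.10 ± 0.40 and Hbb-bs, a beta globin, at 0.79 ± 0.41 (limma adjusted p = 0.0886 and 0.215). The summed erythroid level was highest in VEGF-C 2. In it PBS 4 (226591) was above VEGF-C 1 (186132), VEGF-C 3 (221294) and VEGF-C 4 (149688). By the mean log2 value of the same 10 genes, PBS 4 (11.195) was level with VEGF-C 3 (11.198). It was above VEGF-C 1 (10.91) and VEGF-C 4 (10.65) by that measure too. The summed level of Ppbp, Tubb1, Gp9 and Treml1, 4 genes grouped after their values were seen, was 656, 507, 432 and 181 normalized counts in VEGF-C 1 to 4, against 169, 121, 152 and 133 in PBS 1 to 4. It was highest in VEGF-C 1. The part of blood left in the tissue in these differences was not tested.

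**Figure D4:**
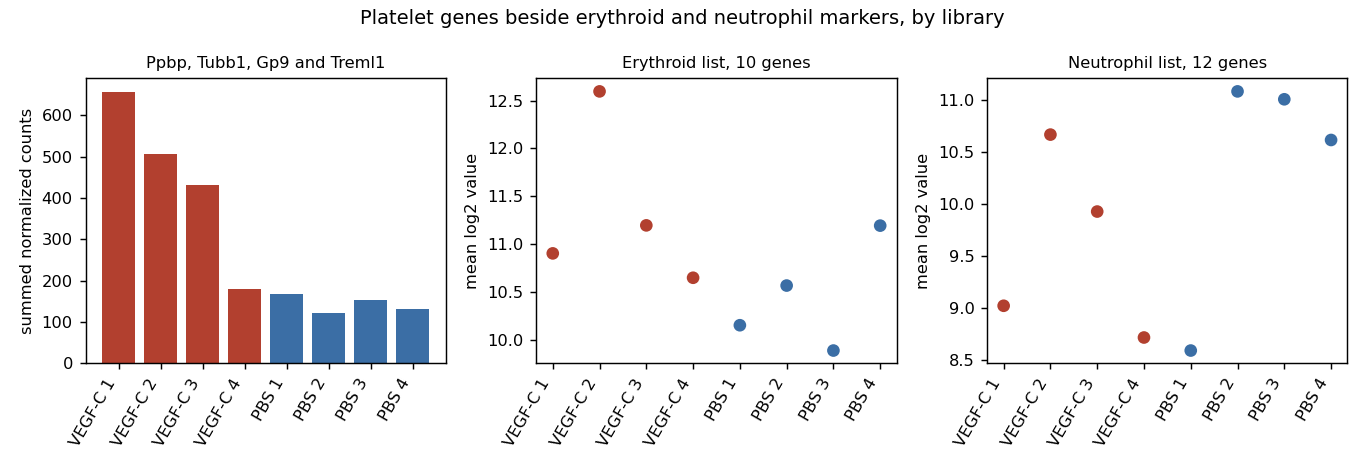
Summed normalized counts of Ppbp, Tubb1, Gp9 and Treml1 (left), mean log2 value of 10 erythroid genes (middle) and of 12 neutrophil genes (right) in each VEGF-C library (red) and PBS library (blue). VEGF-C 1 to 3 (432 to 656) exceed the other 5 libraries (121 to 181) on the left, while erythroid genes are highest in VEGF-C 2 (12.60) and neutrophil genes lowest in PBS 1 (8.59).

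In lists of other cell types that could hold these transcripts, 1 of 10 blood vessel endothelial genes rose and 1 fell, and 1 of 8 heart muscle genes rose. Of all genes, 7.05% rose and 8.61% fell, so no direction is read from these counts. Calls in the leukocyte lists were lower in VEGF-C, but 4 of the 10 lymphocyte genes had positive fold changes. All 12 neutrophil genes (median -0.71) and all 8 mast cell and basophil genes (median -0.73) had negative log2 fold changes. Of 10 blood vessel endothelial genes, Eng rose (0.49) and Egfl7 fell (-0.92; log2 fold changes; limma adjusted p = 0.00426 and 0.00319), and Pecam1, which platelets also carry, was at 0.16 ± 0.084 (limma adjusted p = 0.214; sign changed with library totals). The macrophage genes Adgre1 and Mrc1 were at 0.14 ± 0.12 and -0.21 ± 0.092 (limma adjusted p = 0.446 and 0.142), beside 0.14 ± 0.14 (SE) for Pf4, and with library totals Adgre1 too was negative. Adgre1 was 1 of 2 positive genes in the monocyte and macrophage list. The other 10 were negative, and the median was -0.20. In the monocyte and macrophage list Cd163 (-0.60), Ly6c2 (-0.39) and Folr2 (-0.70) fell (limma adjusted p = 0.0272, 0.0409 and 0.0495), and 0 to 4 genes of the list fell when 1 library was left out, 0 of them without VEGF-C 1, VEGF-C 3, VEGF-C 4 or PBS 3. The B cell genes Cd79a (-1.56) and Cd79b (-1.17) fell (limma adjusted p = 0.0186 and 0.0199), and without VEGF-C 3 only 1 lymphocyte gene fell. The neutrophil genes Mmp9 (-0.91) and Csf3r (-0.77) fell (limma adjusted p = 0.0149 and 0.0316), with S100a8 at -0.60 ± 0.51 (limma adjusted p = 0.448). Without PBS 1, 5 of the list fell, and 1 without any of the VEGF-C libraries or PBS 3. The mast cell and basophil gene Hdc fell by 0.69 (limma adjusted p = 0.0404), a call lost without any 1 library except VEGF-C 2, and 5 of that list fell without PBS 1. Of 8 heart muscle genes, Actn2 rose by 0.61 (limma adjusted p = 0.0101), joined by 1 more without PBS 4. Of these 8 genes, 7 had positive log2 fold changes and 1 a negative one, with a median of 0.34. In 3 of them all VEGF-C libraries were above all PBS libraries, where 11.5% of all genes are so.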

How the data were processed

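RNA was measured by sequencing in 8 mouse hearts, 4 per group. Per the labels' protocols, libraries were made from total RNA with a stranded mRNA kit. The submitters' processing notes name DESeq2 1.38.3, Subread 2.0.1, featureCounts, STAR 2.7.10a and Trim Galore 0.6.10 and the build GRCm39, without roles or settings. The values the authors deposited are on a log2 scale, log2(x + 4), with x the reads of a gene scaled by a library factor. With that factor 100% of the values came out as whole reads (tolerance 0.01), and the factors equalled median-of-ratios factors. Each gene's fold change (log2) and adjusted p-value as the authors deposited them were used only as an alternative. The table lists 56941 genes and gives values for 18835.

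limma 3.58.1 (R 4.3.3) was fitted to the log2 values of all 18835 genes with treatment as the only factor, a mean-variance trend, 6 residual degrees of freedom and Benjamini-Hochberg adjustment, two-sided, with a threshold of 0.05. It was tested on simulated data. No model for counts was used as the main test. Nothing says how animals were housed or processed together. The p-values therefore set the group difference only against the spread between libraries of the same group, among these 8 libraries.

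The platelet genes and the 14 other lists were chosen with earlier results of these data known, so counts within them are a description. Some genes that the counts of the lists include are not reported by name here. Named are the 7 genes, up to 4 genes with the smallest p past the threshold in each other list, 20 genes fixed by name and the 10 genes with the most like deviations (at least 50 normalized counts, without predicted genes). Gp6, Mpig6b, Gata1, Gfi1b and the fibrinogen genes are named beside them as listed without values, Chrd for its overlap with Thpo, and Myh6 as the heart muscle marker. Exon lengths came from GENCODE M21 by gene ID (98.0% of genes), an annotation of another build than the values. Alternatives were library totals, TMM and upper-quartile factors, a pseudocount of 1, a mean of at least 10 normalized counts, limma-voom on the recovered reads (2784 genes called), a robust variance fit, the authors' table and leaving out each library.

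The recovered counts were even in 31 of 32 values of Ppbp, Tubb1, Gp9 and Treml1, and in 76.5% of all values of 1 to 100 reads. Whether both reads of a pair were counted singly was not tested; if so, fewer fragments than reads lie behind each value.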

Additional observations from a re-analysis of the deposited data

Results flagged for a closer look

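In 122 groups of 4 libraries, 8 had a highest or lowest library whose gap to its neighbour was above Dixon's 95% critical value for 4 values, and chance flags about 1 in 20 groups. Among the platelet genes this was Ppbp, whose log2 value in PBS 2 was 5.73, against 6.41 to 6.50 in the other PBS libraries. Without PBS 2 its log2 fold change was 1.31. The other 7 were the lowest PBS value of Nfe2 (7.22 in PBS 1), of Egln2 (12.29) and of Actn2 (16.72), the highest PBS value of Unc13d (9.50 in PBS 1) and of Hdc (10.84 in PBS 1), and the lowest VEGF-C value of F2rl3 (6.70 in VEGF-C 3) and of Itgav (10.76 in VEGF-C 1).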

How the results depend on the processing

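Of 34 summary results, 13 were moved by no alternative, and most of these 13 were counts of 0 in every setting. A count was kept if it stayed within 1.5 times its main value. The median fold change of the 7 genes was kept if it moved by less than the SD between libraries of a group. Their mean correlation was kept if it moved by less than the SD over the pairs of genes. Leaving out 1 library gave log2 fold changes of 1.55 to 2.28 for Tubb1, 1.27 to 1.85 for Ppbp, 1.06 to 1.87 for Gp9, 0.71 to 1.34 for Treml1, 0.055 to 0.26 for Pf4, -0.12 to 0.35 for Itga2b and -0.077 to 0.12 for Itgb3. Pf4, Itga2b and Itgb3 were negative with library totals, and Itga2b and Itgb3 with upper-quartile factors. Library totals shifted the median over all genes by -0.19 on the log2 scale and left 243 genes that rose and 3572 that fell. Upper-quartile factors left 769 that rose. With library totals, 4 granule genes, 10 signalling genes, 4 partners, 4 clotting genes, 6 monocyte and macrophage, 5 lymphocyte and 2 mast cell and basophil genes were lower, and 0 granule, 0 tubulin and 0 clotting genes were higher. With upper-quartile factors 0 tubulin and 0 clotting genes were higher. In the table the authors deposited, 4 of the 7 platelet genes, 2 tubulins, 1 erythroid and 5 cardiomyocyte genes were higher, and 4 partners, 2 clotting genes and 2 mast cell and basophil genes lower. With a robust variance fit 0 partners and 1 neutrophil gene were lower, and 2 cardiomyocyte genes higher, as with limma-voom.

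Leaving out 1 library gave between 1684 and 2906 genes past the threshold, between 591 and 1268 of them higher. The count ranged from 0 to 4 for the 7 platelet genes, from 0 to 1 for receptors higher and for signalling genes higher, from 1 to 2 for megakaryocyte factors and for cardiomyocyte genes higher, and from 0 to 2 for tubulins higher and for partners lower. It ranged from 0 to 1 for clotting genes in each direction, from 0 to 3 for erythroid genes higher, from 1 to 5 for neutrophil, from 0 to 4 for macrophage, from 1 to 4 for lymphocyte and from 0 to 5 for mast cell genes lower. The mean correlation between the platelet genes ranged from 0.24 to 0.68. The cause of these changes was not tested.

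Signs changed, with no call, under library totals for Clec1b (-0.14), F2rl3 (-0.017), P2ry12 (-0.16), Pecam1 (-0.031), Adgre1 (-0.055), Rex1bd (-0.11), Egln2 (-0.16) and Atp5k (-0.14). They changed under upper-quartile factors for Clec1b (-0.014), P2ry12 (-0.026), Egln2 (-0.025) and Atp5k (-0.0071), and in the authors' deposited table for Plcg2 (0.0033). Leaving out 1 library gave log2 fold changes from -0.22 to 0.41 for Clec1b, -0.40 to 0.018 for Selp, -0.080 to 0.14 for P2ry12, -0.14 to 0.0061 for Itgav, -0.33 to 0.10 for Cxcr3, -0.016 to 0.097 for Egln2, -0.028 to 0.14 for Atp5k and -0.051 to 0.067 for Plcg2. Of 864 alternatives of the 54 other named genes, 727 kept the sign and the side of the threshold, 102 lost the call, 5 gained one and 30 changed sign. No paired analysis was possible because no animal number in the labels occurs in both groups and the column numbers tie to no animal. With 8 to 56 reads behind the PBS values of Tubb1, depth limits the precision of its fold. The same holds for Gp9, with 20 to 30 reads in PBS and 16 in VEGF-C 4. It holds for Treml1 too, with 20 to 44 reads in PBS and 20 in VEGF-C 4.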
